A study of Saccharomyces cerevisiae with 12 samples.

Results

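The 40 genes described here are known in the annotation of the array only by a systematic name, the code that gives a yeast gene's chromosome, arm, order and strand, and their transcripts differed between cultures at 12 °C and at 30 °C. They were chosen from 368 such genes, among 5656 genes with a probe set of their own. The choice asked for a difference of at least 1 on the log2 scale, a factor of 2, between 12 °C and 30 °C under nitrogen or carbon limitation, and for a mean signal of at least 100 in at least 1 of the 4 groups. The temperature differences of these genes are therefore given as a description and carry no test, except where genes chosen on the arrays of one limitation were examined on the arrays of the other.

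The cultures were Saccharomyces cerevisiae CEN.PK113-7D, a haploid prototrophic laboratory strain of mating type a, grown without oxygen in chemostats. The groups were, with 3 arrays each, nitrogen-limited at 12 °C, nitrogen-limited at 30 °C, carbon-limited at 12 °C and carbon-limited at 30 °C. All groups shared the strain, the anaerobic vessel and a dilution rate of 0.03 per hour, so the growth rate was set alike at both temperatures. The 3 arrays of a group came from independent cultures, per the labels' protocols.

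In a chemostat the inflow of fresh medium sets the growth rate, and 1 nutrient in that medium runs out first. Yeast short of nitrogen takes up and breaks down poorer nitrogen sources, whereas yeast short of sugar relieves the repression of genes for other carbon sources. Cold slows enzymes and ribosomes and stiffens membranes, and yeast is known to adjust lipid, cell wall and translation genes to it. A gene keeps its systematic name when no one has reserved a standard name for it, which often means that its product is known only from sequence likeness or from large screens.

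The arrays had been brought to a common level before deposit, with a trimmed mean signal of 150.1 on each of the 12 arrays, and the number of arrays limits the precision. Between 22.2% and 26.7% of the probe sets per array lay under the floor of 12 signal units used here. On the third principal component, with 8.80% of the variance, the first nitrogen-limited replicate at 12 °C scored 29.2, apart from all other arrays at -17.1 to 6.12. Without that array the same rule gave 42 genes, of which 37 were among the 40. All 6 a-cell genes examined lay above the floor on every array, and so did 3 of 4 alpha-cell genes. The summed alpha-cell signal was 2386.6 to 3395.2 at 12 °C and 361 to 517.4 at 30 °C under nitrogen limitation. It was 1413.1 to 1880 at 12 °C and 360.1 to 540 at 30 °C in the carbon-limited cultures. Most of it came from MF(ALPHA)1, and MF(ALPHA)2 averaged under the floor in both 30 °C groups. Its part in the results below was not tested. All 5 anaerobic genes examined were above the floor on every array, and so were 3 of 4 aerobic genes. COX5A, the brightest of the aerobic genes, ranged from 141.1 to 978.4, and CTT1, an aerobic catalase gene, lay between 4.3 and 15.4. The summed signal of the 4 aerobic genes was 382.4 to 444.8 at 12 °C and 268.1 to 362.3 at 30 °C under nitrogen limitation, and in carbon-limited cultures 599.3 to 1027.4 at 12 °C and 1358.1 to 1738.5 at 30 °C.

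By their larger difference, 14 of the 40 genes were higher and 26 were lower at 12 °C. These were 3.8% and 7.07% of the 368 genes with only a systematic name. Of all 5656 genes, 5.3% met the rule as higher and 7.34% as lower. The same size and level were met by 12.6% of all genes, by 10.9% of the genes with only a systematic name and by 12.8% of the named genes. Of the 40, 9 were higher and 8 were lower by at least 1 under both limitations. Another 3 were higher and 16 were lower by that size under nitrogen limitation only, and 2 were higher and 2 were lower under carbon limitation only. No gene differed by 1 or more in opposite directions. The arrays of the 2 temperatures did not overlap for 37 genes under nitrogen limitation and for 30 under carbon limitation, beside 48.9% and 42.7% of all genes tested, and nothing is read from these counts since the choice used the same arrays. The median difference of the 14 higher genes was 1.51 under nitrogen limitation and 1.43 under carbon limitation. That of the 26 lower genes was -1.38 and -0.70. The medians of all 40, -1.08 and -0.08, pool both directions, beside -0.10 and 0.03 over the 5400 genes tested. Nothing is read from these medians either, since the choice used the same values. In bulk cultures, fewer cells with a transcript and less of it per cell cannot be told apart.

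**Figure D1:**
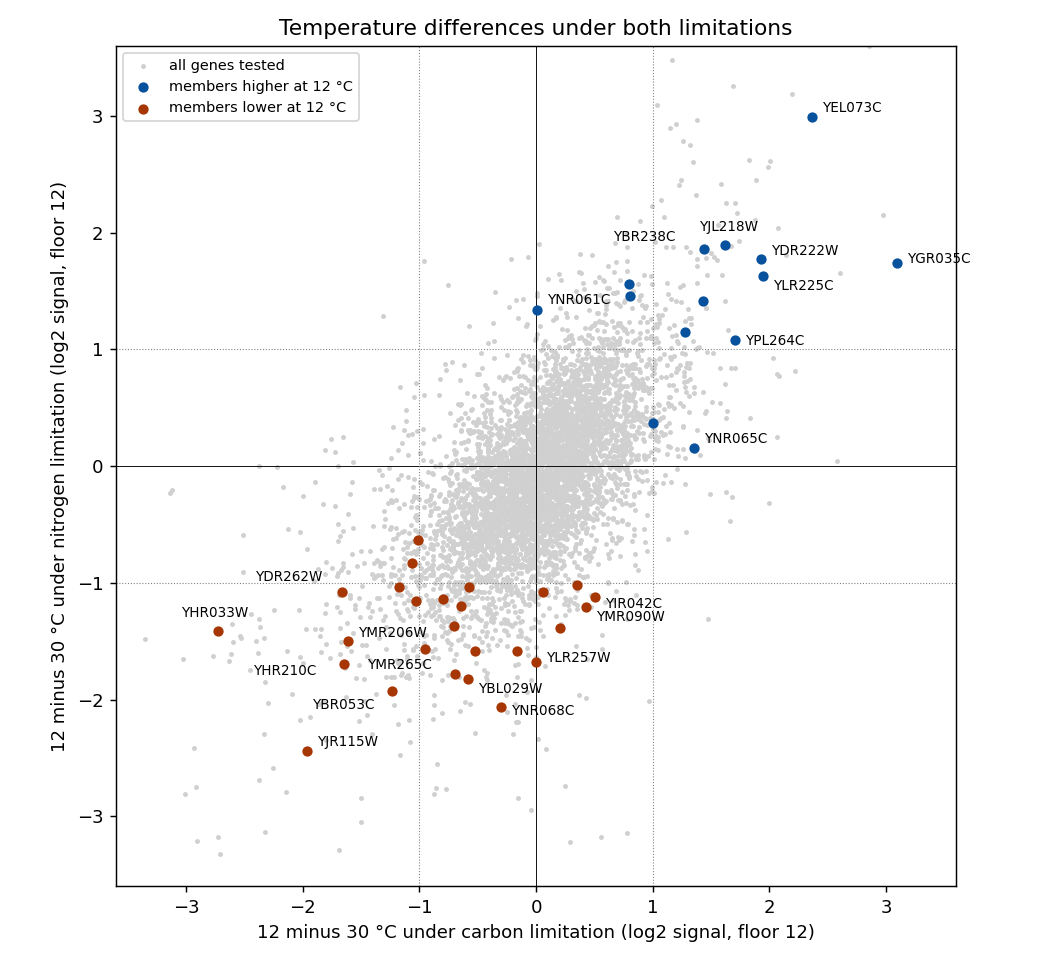
Difference in log2 signal between 12 °C and 30 °C under nitrogen limitation (vertical axis) and carbon limitation (horizontal axis) for the 40 genes (14 higher in blue, 26 lower in brown) and all genes tested in grey, with signals under 12 raised to 12 and dotted lines at a difference of 1. The genes that were lower spread to the right, towards no difference under carbon limitation. The 23 of them chosen on nitrogen-limited arrays had a carbon-limited median of -0.70, and all 304 genes chosen that way also had -0.70. The axes end at 3.6, and 29 genes tested lie outside them.

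The gene with the largest value among those higher at 12 °C under nitrogen limitation was YEL073C, whose product has no assigned function. Its signals under nitrogen limitation were 814.4, 1159.7 and 885.8 at 12 °C, against 124.6, 108.5 and 123.7 at 30 °C. Under carbon limitation they were 854.0, 830.7 and 642.4 at 12 °C, against 143.8, 175.9 and 132.5 at 30 °C. The groups were far apart under both limitations, and the 12 °C level was 7.94-fold the 30 °C level under nitrogen limitation and 5.14-fold under carbon limitation. Folds here and below compare means of log2 signal with the floor. The name of its probe set carries a suffix, a sign that some probes may match more than 1 transcript. A second, dimmer probe set differed by 3.09 and 2.51 on the log2 scale under nitrogen and carbon limitation, with 30 °C means of 4.6 and 1.4, under the floor.

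YGR035C, a gene of unknown function related to CIS1, had the largest value under carbon limitation. Under nitrogen limitation its signals were 119.8, 161.7 and 158.9 at 12 °C, against 36.9, 48.8 and 46.2 at 30 °C, a 3.33-fold difference. Its carbon-limited signals were 95.6, 148.6 and 79.4 at 12 °C, against 12.6, 10.2 and 12.0 at 30 °C. Of the 3 carbon-limited arrays at 30 °C, 2 were at or under the floor, so the 8.53-fold difference is understated, and with a floor of 50 the log2 difference was 1.06 in place of 3.09. YGR035C was thus low at 30 °C in both media, and lowest in carbon-limited cultures.

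YDR222W and YLR225C are related to each other and have no assigned function, and both were higher at 12 °C. YLR225C gave 149.4, 155.4 and 250.0 at 12 °C against 57.6, 61.5 and 55.4 at 30 °C under nitrogen limitation, and 216.8, 188.5 and 191.4 at 12 °C against 46.6, 57.0 and 51.3 at 30 °C under carbon limitation. YDR222W gave 128.0, 133.0 and 151.5 at 12 °C against 36.5, 44.9 and 39.3 at 30 °C under nitrogen limitation, and 50.8, 83.4 and 72.5 at 12 °C against 22.7, 12.4 and 19.8 at 30 °C under carbon limitation. The folds were close for the pair, at 3.09 for YLR225C and 3.42 for YDR222W under nitrogen limitation and 3.86 and 3.81 under carbon limitation, and no arrays overlapped between temperatures. The carbon-limited likeness depended on the floor, since with a floor of 50 the log2 difference of YDR222W was 0.43 in place of 1.93, while that of YLR225C was 1.91.

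YJL218W, YBR238C and YPL245W were also higher under both limitations. YJL218W resembles bacterial acetyltransferases and was 3.71-fold higher at 12 °C under nitrogen and 3.08-fold under carbon limitation. One of its 30 °C arrays under nitrogen limitation, at 14.9, lay well below the other 2, at 55.1 and 54.3. YBR238C, a mitochondrial protein gene related to RMD9, was 3.64-fold and 2.71-fold higher, and with a floor of 50 its nitrogen-limited difference was 1.21 in place of 1.86 on the log2 scale. YPL245W, of unknown function, averaged 208.9 ± 27.8 at 12 °C and 77.9 ± 3.87 at 30 °C under nitrogen limitation (SD, n = 3 each), and 158.3 ± 11.5 at 12 °C and 59.1 ± 8.86 at 30 °C in the carbon-limited cultures.

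YPL264C and YBL028C each had 1 discordant array. YPL264C encodes a predicted membrane protein. It gave 299.9, 249.1 and 358.4 at 12 °C under nitrogen limitation, against 59.2, 238.0 and 200.7 at 30 °C. The lowest 12 °C array was only just above the highest 30 °C array. YBL028C encodes a nucleolar protein. It gave 33.1, 102.5 and 124.8 at 12 °C, against 36.3, 29.4 and 36.1 at 30 °C under nitrogen limitation. There the groups overlapped through replicate 1 at 12 °C, the array that stood apart above. Under carbon limitation YPL264C was 3.26-fold and YBL028C 2.43-fold higher at 12 °C, with no overlap.

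Among the genes that were lower at 12 °C, YJR115W, a gene of unknown function related to ECM13, had the largest value under nitrogen limitation. Its signals were 36.2, 31.8 and 30.9 at 12 °C, against 196.4, 181.7 and 160.2 at 30 °C. Under carbon limitation they were 44.9, 44.2 and 57.4 at 12 °C, against 225.7, 201.8 and 148.8 at 30 °C. The level at 12 °C was 5.44-fold lower under nitrogen limitation and 3.90-fold lower under carbon limitation, with no overlap in either.

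YHR033W is a relative of PRO1, which encodes the gamma-glutamyl kinase of proline synthesis. Under nitrogen limitation it had 44.6, 30.9 and 39.7 at 12 °C, against 110.4, 93.5 and 100 at 30 °C. Under carbon limitation, where it had the largest value among the lower genes, it had 51.6, 39.7 and 34.7 at 12 °C, against 218.8, 275.8 and 337.5 at 30 °C. The means at 12 °C were 38.4 under nitrogen and 42.0 under carbon limitation, and the level at 12 °C was 2.66-fold lower than at 30 °C under nitrogen and 6.59-fold lower under carbon limitation.

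YHR210C, YBR053C, YMR206W, YDR262W, YGL185C and YER034W were also lower by at least 1 under both limitations. YHR210C resembles the mutarotase part of Gal10, which interconverts forms of sugars, and was 3.24-fold lower at 12 °C under nitrogen and 3.13-fold under carbon limitation. YBR053C, of unknown function, was 3.79-fold and 2.35-fold lower. YMR206W, of unknown function, was 2.82-fold and 3.05-fold lower. YDR262W, a vacuolar protein gene, averaged 223.1 ± 44.0 at 12 °C and 465.1 ± 40.1 at 30 °C under nitrogen limitation, and 182.1 ± 28.6 and 571.4 ± 37.2 under carbon limitation (SD, n = 3 each). YGL185C, which resembles hydroxyacid dehydrogenases, and YER034W, of unknown function, differed by -1.16 and -1.03 under nitrogen limitation and by -1.03 and -1.17 under carbon limitation. With a floor of 50 the carbon-limited value of YER034W was -0.71.

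**Figure D2:**
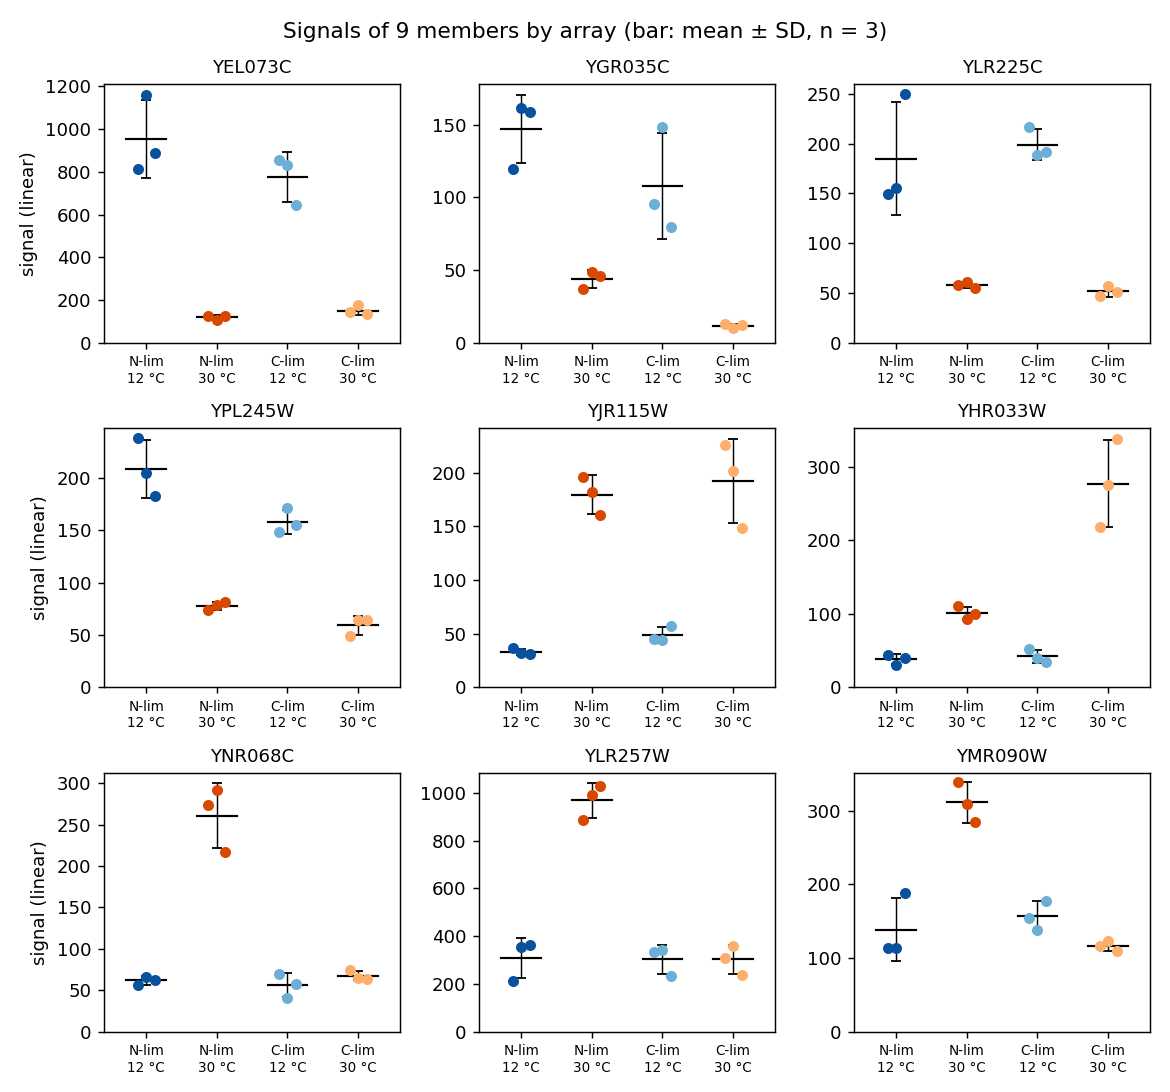
Signals of 9 of the genes on each of the 12 arrays, on linear axes that start at 0, with a black bar at the group mean and error bars of 1 SD (n = 3). YEL073C, YGR035C, YLR225C and YPL245W are higher and YJR115W and YHR033W lower at 12 °C under both limitations, whereas YNR068C, YLR257W and YMR090W are high in nitrogen-limited cultures at 30 °C.

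Another 16 genes were lower at 12 °C by at least 1 under nitrogen limitation only. Of all 26 genes that were lower, 18 had their highest mean in nitrogen-limited cultures at 30 °C and 8 in carbon-limited cultures at 30 °C. The choice used the same arrays, so nothing is read from these counts. Among all 304 genes chosen as lower on nitrogen-limited arrays, nitrogen minus carbon at 30 °C had a median of 0.60, beside 0.91 for the 23 here. YNR068C, similar to part of the ubiquitin-ligase adaptor Bul1, gave 56.7, 66.4 and 62.6 at 12 °C, against 274.1, 291.3 and 217.1 at 30 °C under nitrogen limitation. Under carbon limitation it gave 69.3, 41.0 and 58.1 at 12 °C, against 74.2, 64.9 and 64.0 at 30 °C. YNR068C was thus high on 3 arrays and low on the other 9, and its carbon-limited groups overlapped.

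YLR257W, of unknown function, had the same shape at a higher level. It gave 213.9, 356.0 and 361.7 at 12 °C, against 884.7, 990.1 and 1029.1 at 30 °C under nitrogen limitation. Under carbon limitation the means were 302.5 ± 61.2 at 12 °C and 302.6 ± 61.7 at 30 °C (SD, n = 3 each). The carbon-limited groups of YLR257W coincided. Not all genes of this group were flat under carbon limitation. YJR096W, an aldo-keto reductase that reduces xylose and arabinose, averaged 113.6 ± 29.0 at 12 °C and 329.5 ± 3.50 at 30 °C under nitrogen limitation, and 109.8 ± 17.4 and 211.2 ± 23.2 under carbon limitation, where it fell by 0.95 with a limma adjusted p of 0.0033. Under nitrogen limitation YER152C, an aminotransferase, averaged 92.1 ± 16.6 at 12 °C and 236.5 ± 29.9 at 30 °C, and YER158C, related to AFR1, averaged 197.9 ± 44.0 and 585.1 ± 68.4. Under carbon limitation they differed by -0.70 and -0.17. On the log2 scale the nitrogen-limited differences were -1.82 for YBL029W, -1.78 for YMR265C and -1.20 for YNR014W, all of unknown function, and -1.58 for YLR001C, whose product has a fasciclin-type domain. Under carbon limitation these 4 genes differed by -0.58, -0.70, -0.65 and -0.53, with no overlap. With a floor of 50 the nitrogen-limited value of YNR014W was -0.37. The probe set of YLR001C carries a suffix, and its other probe set, without one, differed by -2.60. YER121W and YDL057W, of unknown function, averaged 58.1 and 61.3 at 12 °C, against 126.4 and 126.8 at 30 °C under nitrogen limitation. The carbon-limited arrays of YER121W did not overlap and those of YDL057W did.

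YMR090W, which resembles dTDP-glucose dehydratases, gave 114.0, 113.7 and 187.9 at 12 °C against 339.6, 309.5 and 285.0 at 30 °C under nitrogen limitation, and 154.6, 138.8 and 178.1 at 12 °C against 116.5, 123.2 and 110.0 at 30 °C under carbon limitation. It was lower at 12 °C in the first medium and higher in the second, with no overlap in either. The carbon-limited rise of YMR090W was 0.43 on the log2 scale and was not called (limma adjusted p = 0.141). Another 4 genes, YMR196W, YLR460C, YML020W and YIR042C, also had opposite signs, but their carbon-limited arrays overlapped. YLR460C belongs to a quinone oxidoreductase family, and its carbon-limited means were 90.4 at 12 °C and 85.4 at 30 °C. The largest values of nitrogen minus carbon for the temperature difference were -1.77 for YNR068C, -1.68 for YLR257W, -1.63 for YIR042C, -1.63 for YMR090W and -1.59 for YMR196W on the negative side. They were 1.33 for YNR061C, 1.31 for YHR033W, 0.76 for YNL058C, 0.65 for YDR514C and 0.63 for YEL073C on the positive side.

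Another 5 genes were higher at 12 °C by 1 or more in 1 medium only. YNR061C, of unknown function, YDR514C, a relative of GFD2, and YNL058C, a relative of PRM5, were higher at 12 °C under nitrogen limitation by 1.34, 1.45 and 1.56 on the log2 scale. Under carbon limitation they differed by 0.01, 0.81 and 0.80, and the arrays of YDR514C and YNL058C did not overlap there either. With a floor of 50 the nitrogen-limited difference of YDR514C was 0.81. YNR065C is similar to the vacuolar sorting receptor Pep1 and belongs to a close family, so its probe set may read relatives. It gave 256.8, 331.4 and 295.0 at 12 °C against 256.1, 275.2 and 259.6 at 30 °C under nitrogen limitation, and 219.0, 173.9 and 162.4 at 12 °C against 76.0, 68.9 and 71.0 at 30 °C under carbon limitation. Its carbon-limited arrays at 30 °C were low and the other 9 were high. YJL193W, of the triose-phosphate transporter family, was 2.01-fold higher at 12 °C under carbon limitation, and YGR127W and YIL060W differed there by -1.06 and -1.01. The probe set of YIL060W carries a suffix, and its one probe set without a suffix lay near the floor. Its other probe sets with a suffix differed by -0.85 and -0.81 under carbon limitation. With probe sets averaged its carbon-limited difference was -0.67, and it no longer met the rule.

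**Figure D3:**
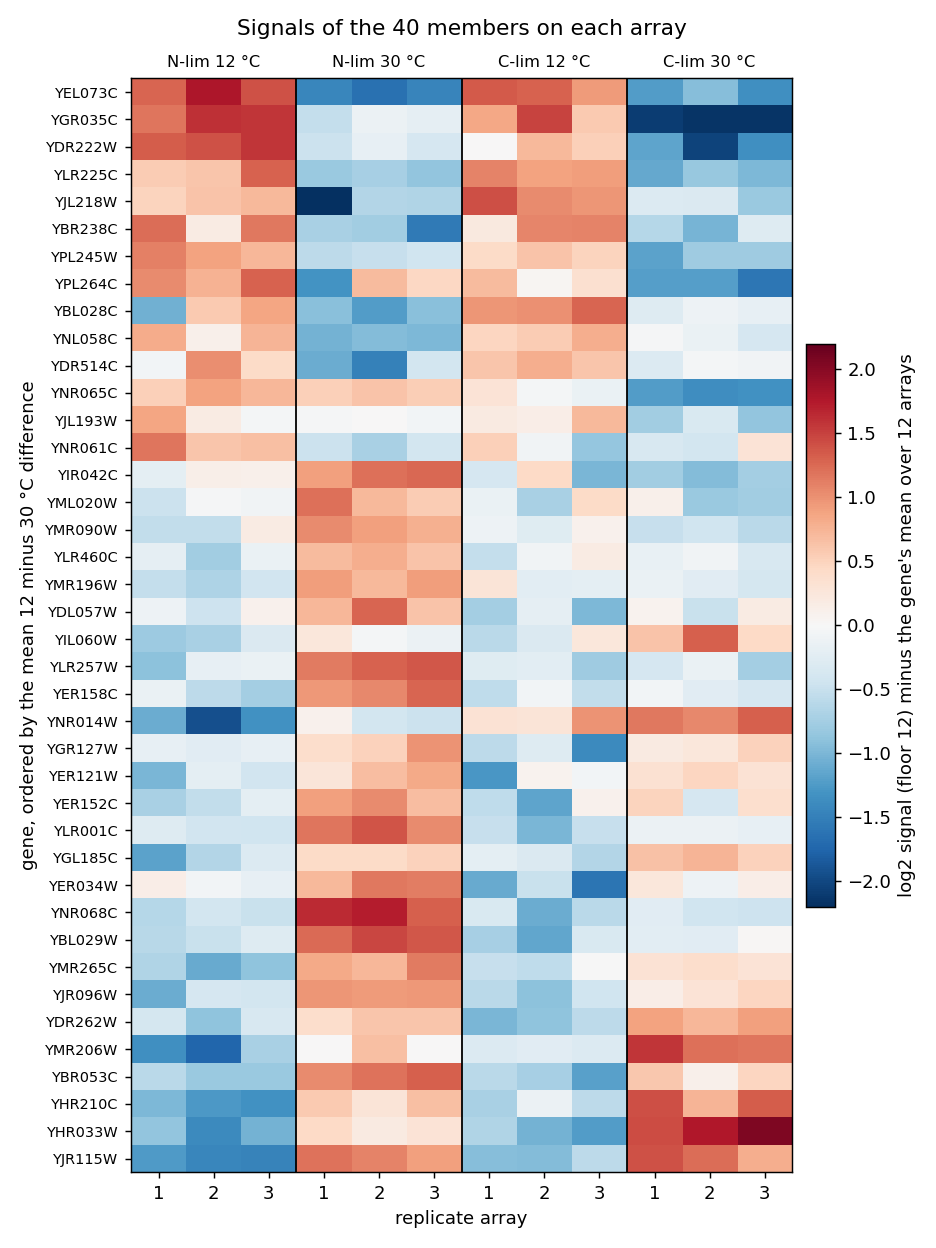
Log2 signal of the 40 genes (rows, ordered by mean temperature difference) on the 12 arrays (columns, 3 per group), each as the difference from the gene's mean over all arrays, with red above and blue below. Most of the genes lower at 12 °C are reddest in nitrogen-limited cultures at 30 °C, where 18 of 26 have their highest mean. The choice used the same arrays, so nothing is read from this count.

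The threshold itself cut through a continuum. Just inside the difference of 1 lay YJL193W at 1.01, YIL060W at -1.01 and YML020W at -1.02, and just outside lay YMR045C at -0.999, YGL039W at -0.97 and YLR177W at -0.95. Just inside the level of 100 lay YDR514C at 101.5, YNR061C at 101.8 and YML020W at 105.5, and just outside lay YNR077C at 98.97, YCL002C at 98.7 and YNL195C at 98.3. A further 39 genes with only a systematic name met the difference but not the level. Of the 368 genes, 327 passed the filter on dim genes.

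Whether a temperature difference recurs in the other medium was tested on arrays that the choice had not used. Of 19 genes that the carbon-limited arrays alone would choose, 16 changed the same way under nitrogen limitation at an adjusted p under 0.05 (limma, Benjamini-Hochberg over all genes tested), 8 of them higher and 8 lower, and none changed the opposite way. Among all genes tested, 38.2% were called under nitrogen limitation, 15.9% higher and 22.3% lower. Among all genes chosen the same way on carbon-limited arrays, 72.4% were called in the matching direction, beside 84.2% of the 19. By direction, 71.7% of those rises and 72.9% of those falls were called, beside 8 of 10 and 8 of 9 here. The 3 genes not called were YNR065C, YJL193W and YIL060W, with limma adjusted p of 0.51, 0.243 and 0.0516. YBL028C and YPL264C were called with limma adjusted p of 0.0178 and 0.0339, and over fits that each left out 1 array these reached 0.0922 and 0.17. Their calls were lost without replicate 2 or 3 of nitrogen limitation at 12 °C or replicate 2 at 30 °C for YBL028C, and without replicate 1 or 3 at 12 °C or replicate 1 at 30 °C for YPL264C. Without replicate 1 at 30 °C the difference of YPL264C under nitrogen limitation was 0.45 in place of 1.08, and without replicate 1 at 12 °C that of YBL028C was 1.74 in place of 1.15. The call of YGR127W was lost without replicate 3 at 30 °C, at 0.0932, and under median scaling, at 0.0565. With dim genes kept in the fit, YBL028C and YPL264C were at 0.0541 and 0.0931. YEL073C rose with an adjusted p of 8.1e-09 and YJR115W fell with 3.7e-07, both in limma.

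Of 33 genes that the nitrogen-limited arrays alone would choose, 20 changed the same way under carbon limitation by the same test, and none the opposite way. Among all genes tested, 25.7% were called under carbon limitation, 13.1% higher and 12.6% lower, and 57.3% of all genes chosen on nitrogen-limited arrays were called in the matching direction, beside 60.6% of the 33. The rises recurred for 9 of 10 genes, and the falls for 11 of 23. Over all genes chosen this way, 67% of rises and 50.7% of falls recurred. The genes lower under nitrogen limitation that were not called under carbon limitation included YNR068C, YLR257W and YER158C, with limma adjusted p of 0.336, 1 and 0.571. YGR035C rose under carbon limitation with a limma adjusted p of 1.7e-07 and YHR033W fell with 3.6e-07. With a floor of 50 the rise of YGR035C was 1.06, with a limma adjusted p of 0.0013. The call of YDR222W was lost with a floor of 50 (limma adjusted p = 0.0522). The calls of YLR001C, YMR265C and YNL058C were lost in 7, 5 and 2 of the 12 fits that left out 1 array, with adjusted p of up to 0.155, 0.0805 and 0.0649.

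The limitation effect averaged over both temperatures was not a term of the rule, but the choice is not independent of it. A gene could meet the level of 100 in 1 medium only, and a high level in 1 group enters both the temperature and the limitation difference. The counts are therefore a description. Of the 40 genes, 16 were higher and 7 were lower in nitrogen-limited than in carbon-limited cultures (limma, adjusted p under 0.05). Over all genes tested, 27% were called, 12.6% higher and 14.4% lower. Among named genes that met the same size and level, 21.3% were called higher and 21.3% lower, and among genes with only a systematic name outside the rule 19.5% and 9.76%. Of the 40, 9 met the level under nitrogen limitation only, and 6 of these were among the 16 higher genes. Another 3 met it under carbon limitation only, and 2 of these were among the 7 lower genes. The other 28 met it in both media, and 10 of them were called higher and 5 lower.

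YNR065C was higher by 1.27 ± 0.12 (SE) under nitrogen limitation and met the level in both media. The low carbon-limited arrays at 30 °C that chose it enter this difference too, so no p is given. The difference was 1.87 at 30 °C and 0.67 at 12 °C. YNR014W differed by -1.71 ± 0.19 and met the level under carbon limitation only, so no p is given. These were the only genes of the 40 whose 6 nitrogen-limited and 6 carbon-limited arrays did not overlap, beside 4.35% of all genes tested. YNR014W gave 36.2, 20.1 and 30.6 at 12 °C and 82.6, 58.0 and 55.8 at 30 °C under nitrogen limitation, and 95.8, 94.3 and 153.1 at 12 °C and 172.2, 161.2 and 190.7 at 30 °C under carbon limitation. Every nitrogen-limited array thus lay below every carbon-limited one. Its relative YMR206W was also lower under nitrogen limitation, at -1.04 ± 0.18 (limma adjusted p = 0.00054).

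YGR035C was higher under nitrogen limitation by 1.16 and YPL264C by 0.98 on the log2 scale, both past the threshold. With a floor of 50 the value of YGR035C was 0.24 (limma adjusted p = 0.209), and with dim genes kept in the fit the call of YPL264C was lost (0.0537). YIR042C, YDR222W and YNR068C, which met the level under nitrogen limitation only, differed by 1.14, 1.10 and 1.05, and with a floor of 50 YIR042C and YDR222W differed by 0.66 and 0.51. Other genes lower under nitrogen limitation were YHR033W at -0.78, YHR210C at -0.69 and YIL060W at -0.58, the last at -0.14 and not called with probe sets averaged. YBL028C, which met the level under carbon limitation only, differed by -0.89, and by -0.51 with a floor of 50. The calls of YNL058C, YML020W, YPL245W, YBR053C and YIL060W did not hold in all fits that left out 1 array, being lost in 9, 8, 8, 5 and 3 of 12. For several genes the averaged effect came with unequal values at the 2 temperatures. YLR257W differed between nitrogen and carbon limitation by 0.02 at 12 °C and by 1.70 at 30 °C, YNR068C by 0.17 and 1.94, and YIR042C by 0.32 and 1.95. YER034W and YDR222W differed by similar amounts at both, 1.04 and 0.91 for YER034W and 1.02 and 1.18 for YDR222W.

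**Figure D4:**
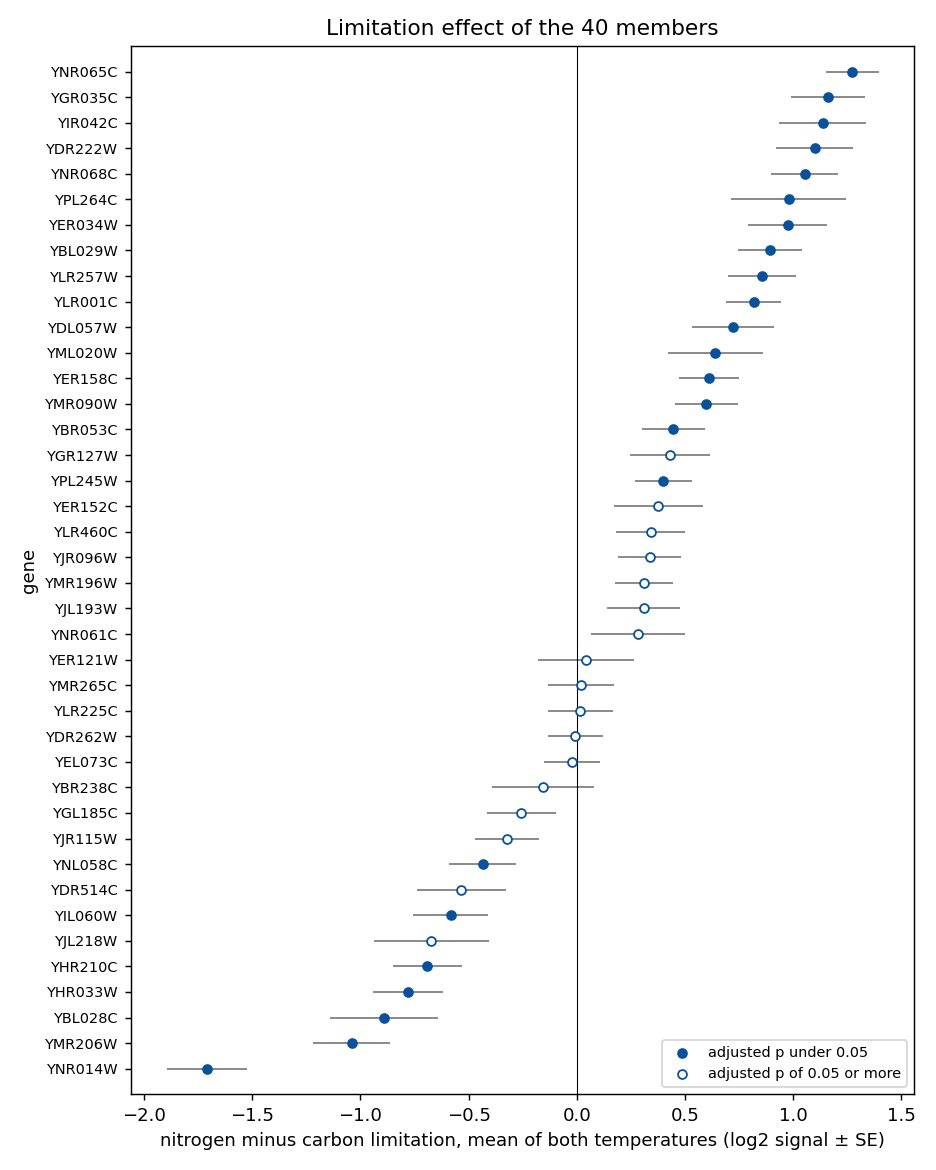
Nitrogen minus carbon limitation, averaged over both temperatures, for each of the 40 genes (log2 signal, bars of 1 SE from limma), with filled points for an adjusted p under 0.05. Of the filled points, 16 lie to the right of 0 (higher under nitrogen limitation) and 7 to the left, with YNR065C and YNR014W at the ends. Of the 16, 6 met the level under nitrogen limitation only, and of the 7, 2 met it under carbon limitation only, YNR014W among them. The choice favoured the side of these points, so the counts are a description.

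Genes taken as relatives of the 40 came from general knowledge of yeast gene families, after the 40 were known, and were not checked against an annotation or by sequence. Their temperature values often differed. The related pairs within the 40, YDR222W with YLR225C and YMR206W with YNR014W, had the same direction. PRO1 differed by 0.63 under nitrogen and -0.03 under carbon limitation, beside -1.41 and -2.72 for YHR033W. RMD9 differed by -0.05 and -0.44, beside 1.86 and 1.44 for YBR238C. CIS1 differed by -1.32 and -0.70, where YGR035C differed by 1.74 and 3.09. PRM5 differed by -0.59 and -2.51, where YNL058C differed by 1.56 and 0.80. GFD2, whose product acts in mRNA export, was higher by 1.10 and 0.54, beside 1.45 and 0.81 for its relative YDR514C.

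**Figure D5:**
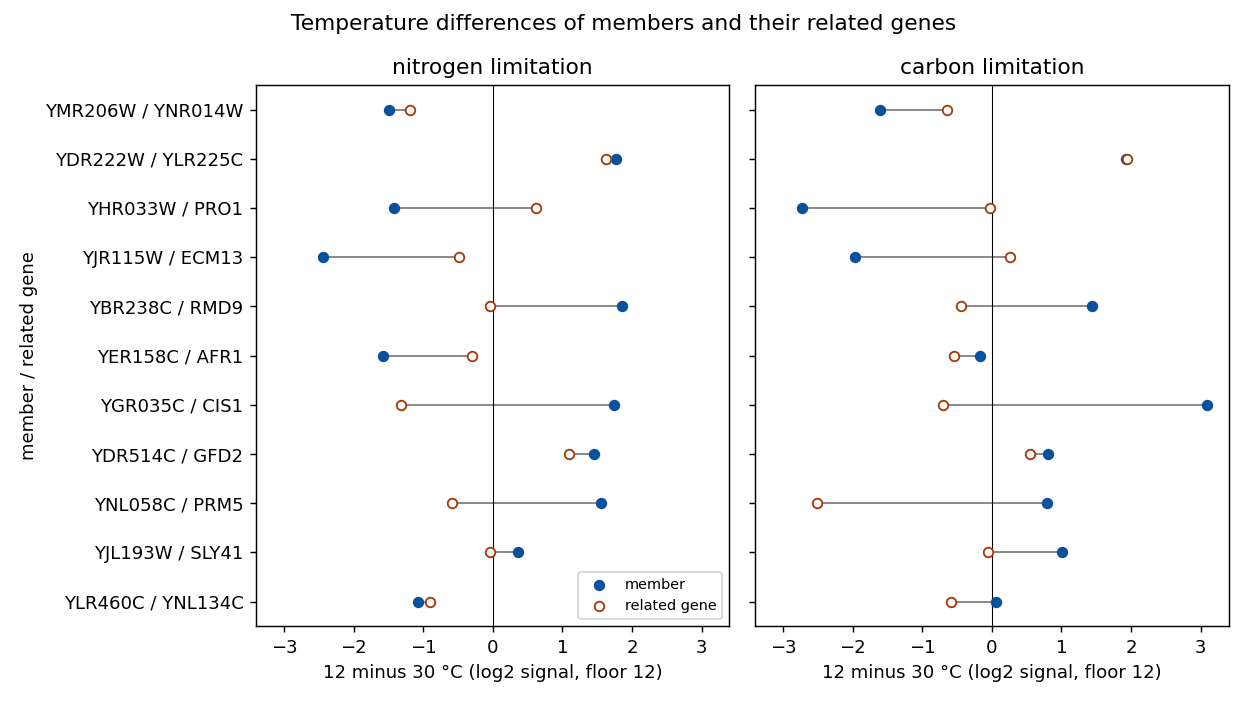
Difference in log2 signal between 12 °C and 30 °C for 11 pairs of a gene among the 40 (filled) and a related gene (open), under nitrogen limitation (left panel) and carbon limitation (right panel). CIS1 and PRM5 lie on the other side of 0 from YGR035C and YNL058C under both limitations. SLY41, at -0.05 under both limitations, and RMD9, at -0.05 under nitrogen limitation, lie close to 0. Under carbon limitation RMD9 lies at -0.44, with YBR238C at 1.44. The pair of YHR210C and YNR071C is not drawn, and YNR071C averaged under the floor in every group.

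Neighbours along the chromosome, from the gene order of assembly R64, moved with some of the genes. YPL245W and RBD2, a rhomboid protease gene on the other side of a shared upstream region, correlated over the 12 arrays with Pearson's r of 0.94, and RBD2 was higher at 12 °C by 1.00 and 1.37. YNR068C correlated with BSC5 at 0.975 and DSE4 at 0.90, on either side of it. BSC5 was dim, with a highest group mean of 37.5, and with the floor its carbon-limited difference was 0.0. YBL028C and YBL029W are adjacent and converge, and they differed in opposite directions, with r of -0.72. YPL264C converges with DIP5, an acidic amino acid permease gene that was lower at 12 °C, with a mean signal under the floor in both media, and they correlated at -0.67. A neighbour that met the size and level in the same direction was found for 8 of 39 genes, or 20.5%. The share was 15.5% of all 657 genes that met the size and level, these 39 included. Such a neighbour in the opposite direction was found for 3 of 39, or 7.69%, beside 10.2% of the 657. These correlations follow the 4 groups of arrays and are descriptions.

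Named genes most like the largest members were found by Pearson's r of log2 signals over the same 12 arrays. YEL073C was most like PDR12, a weak acid exporter gene, at 0.992, and CHO1, a phosphatidylserine synthase gene, at 0.981. YJR115W was most like COX26 at 0.976 and YHR033W was most like FUI1, a uridine permease gene, at 0.977 and MUP1, a methionine permease gene, at 0.976. YBR053C was most like FLO11, a cell surface flocculin gene, at 0.978, and YHR210C was most like IGD1 at 0.971. YLR225C was most like ARE2, a sterol acyltransferase gene, at 0.978. The means of FUI1 and MUP1 at 12 °C and of ARE2 at 30 °C lay under the floor in both media, so their r rests partly on floored values. The arrays share the same 4 groups, so any gene with the same order of groups scores high.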

How the data were processed

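Transcript levels of 12 cultures were measured on Affymetrix arrays. The deposited values are linear intensities made with GCOS, per the submitters' processing notes. Its version and scaling were not given in the sources used here. Groups and replicate numbers came from the sample titles. Names came from the platform annotation, and all 6504 probe sets with 1 gene matched the R64 gene table, which changed 0 symbols. The genes and lists were chosen with earlier results of these data known.

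Intensities under 12 were raised to 12 and log2 was taken. For a gene with several probe sets the one of highest mean log2 was kept. Testing used the 5400 genes above 12 on at least 3 arrays and left 256 aside. Group means were fitted with limma 3.58.1 (R 4.3.3), with an intensity trend and all 12 arrays. Adjusted p values are Benjamini-Hochberg over the 5400 genes, with a threshold of 0.05. An exact permutation test of 3 against 3 cannot go below 0.1. The fit was tested on simulated data. Genes named were the 8 largest differences each way per limitation, the 5 largest each way in both, the 5 largest each way in the difference between limitations, the 6 largest each way for limitation, and those next to the thresholds. Protein identity and promoter motifs were not analysed here. Alternatives were other floors, normalizations, filters, probe set choices and symbols, a replicate block and each array left out. With equal replicates the limitation contrast is orthogonal to the temperature contrasts, but the level threshold uses the levels of both limitations.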

Additional observations from a re-analysis of the deposited data

Results flagged for a closer look

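The temperature differences of YMR090W had opposite signs under the 2 limitations. Its arrays at 12 °C were all lower than those at 30 °C under nitrogen limitation and all higher under carbon limitation, and the difference of the temperature differences was -1.63 on the log2 scale. That difference was not tested, because the gene was chosen on the same values. The carbon-limited rise alone was 0.43 and was not called (limma adjusted p = 0.141). Under carbon limitation the arrays of the 2 temperatures did not overlap for 42.7% of all genes tested. The share of all genes without overlap in opposite directions under the 2 limitations is not given here.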

How the results depend on the processing

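The 4 counts, of genes chosen (40), of recurrence under nitrogen limitation (16) and under carbon limitation (20), and of limitation calls (23), stayed within 1.5 times of their values under every alternative run. Leaving out 1 array gave 39 to 45 genes chosen, 15 to 18 and 17 to 23 recurring, and 20 to 23 limitation calls. A floor of 50 gave 36 genes, quantile normalization 37, of which 34 were shared, and median scaling 39, of which 35 were shared. Taking names with letter suffixes gave 54. The median temperature difference of all genes under nitrogen limitation was -0.10 as deposited, 0.02 after quantile normalization and 0.06 after median scaling. With replicate number as a block, 16 and 20 genes recurred and 21 were called for limitation. Same-number arrays correlated between -0.195 and 0.184 in their deviations from group means, so the numbers were not taken as pairs. No difference of 1 or more and no called effect changed sign. The limitation call was lost in 11 settings for YNL058C and in 9 each for YML020W and YPL245W, and the carbon recurrence of YLR001C was lost in 9. The call of YBL028C under nitrogen limitation was lost in 4 settings, and that of YPL264C in 4.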
